A study of Arabidopsis thaliana with 4 samples.

Results

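The 42 genes described here are nuclear genes of Arabidopsis thaliana for light-harvesting proteins and subunits of photosystem I (PSI) and photosystem II (PSII). They are named LHCA, LHCB, PSA and PSB. Not every gene so named is among them, as LHCB7, PSB27 and PSB28 were placed in other lists. The 42 were chosen by locus, with earlier results of these data known. They fall into 6 PSI antenna genes (LHCA), 14 PSII antenna genes (LHCB), 12 PSI core genes (PSA) and 10 PSII core genes (PSB). These sets follow gene names only, and PSBS is counted as PSII core by its name. The genes described were 42 of the 34261 genes on the array and 42 of the 21729 genes tested.

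In the thylakoid membrane of the chloroplast, chlorophyll-binding antenna proteins collect light and pass the excitation energy to the reaction centres of PSII, which splits water, and of PSI, which reduces ferredoxin. The central reaction-centre proteins are encoded in the chloroplast genome, whereas the antenna and many peripheral subunits are encoded in the nucleus and imported. In leaves, transcripts of the major antenna proteins are among the most abundant of all, and they are known to respond to light, to the circadian clock and to signals from the chloroplast.

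The study asked how the loss of SAHY9/APUM23, a nucleolar Pumilio-domain RNA-binding protein needed for ribosome biogenesis, alters the response to salt. Whole seedlings of wild-type Col-0 and of sahy9-1 (sahy9/apum23 in the study) were grown for 10 days under long days and moved to 150 mM NaCl for 1 day. Each genotype was hybridised to 2 one-colour Agilent arrays, from independent experiments, so that all groups carried the salt treatment and only genotypes were compared. The mutant is 1 T-DNA line with an insertion in an exon of APUM23, and its seedlings are described as smaller than the wild type with short roots.

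APUM23 (AT1G72320) checked the labels. Its level, given throughout as log2 spot intensity minus the 75th percentile of the array, was -0.61 and -0.42 on the Col-0 arrays and -3.34 and -3.58 on the sahy9-1 arrays. It was 7.71-fold lower in sahy9-1 (log2 fold change -2.95 ± 0.12, SE; limma adjusted P = 0.000972). The arrays were alike in quality, with 74.6 to 76.3% of gene spots well above background and no saturated spot. Arrays of the same genotype correlated at 0.993 and 0.994 over genes, and arrays of different genotypes at 0.981 to 0.984. All 4 arrays lay on 1 slide, with the Col-0 arrays at positions 1 and 2 and the sahy9-1 arrays at positions 3 and 4, so that position and genotype cannot be told apart. The replicate spread was small, with a median standard deviation within genotypes of 0.076 over all genes and 0.055 over the 42 genes.

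All 42 genes read lower in sahy9-1 than in Col-0, and 33 of them fell at an adjusted P of 0.05 or less, the threshold used throughout (limma, adjusted over all genes tested). Over the whole array 49.4% of genes changed by the same test, 24.0% downward and 25.4% upward, and the 33 genes were 78.6% of the 42. None of the 42 rose, and none read higher at any P. The direction held for all 42 under 17 of 19 alternative settings, and for 39 of 42 under quantile normalization and without scaling. The 2 sahy9-1 arrays lay below both Col-0 arrays for every one of the 42, whereas the genotypes did not overlap for 80.3% of all genes tested. The falls were modest, with a median log2 fold change of -0.32 (1.25-fold) against -0.0041 for all genes. They ran from 1.11-fold for LHCB2.2, which did not pass the test, to 2.01-fold for LHCA6. No gene of the 42 reached 3-fold, which 3.24% of all genes did with the adjusted P, and LHCA6 was the only one past 2-fold, where 4.28% of all genes had fallen.

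As RNA came from whole seedlings, fewer green cells and less transcript per cell cannot be told apart. The limma P-values and SEs rest on the spread between the 2 experiments of each genotype, drawn toward a spread shared over all genes tested. PSAF, for example, had standard deviations of 0.011 in Col-0 and 0.0022 in sahy9-1 but an SE of 0.061. With any 1 array left out, fewer of the 42 genes fell, as did fewer of all genes tested. Without either sahy9-1 array the share of the 42 that fell came down to about that of all genes. All 42 kept their direction in these fits, and their median stayed between -0.34 and -0.30. The methods' t-test called 30 of the 42 before and 0 after adjustment, against 4510 and 36 of all genes called lower.

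**Figure D1:**
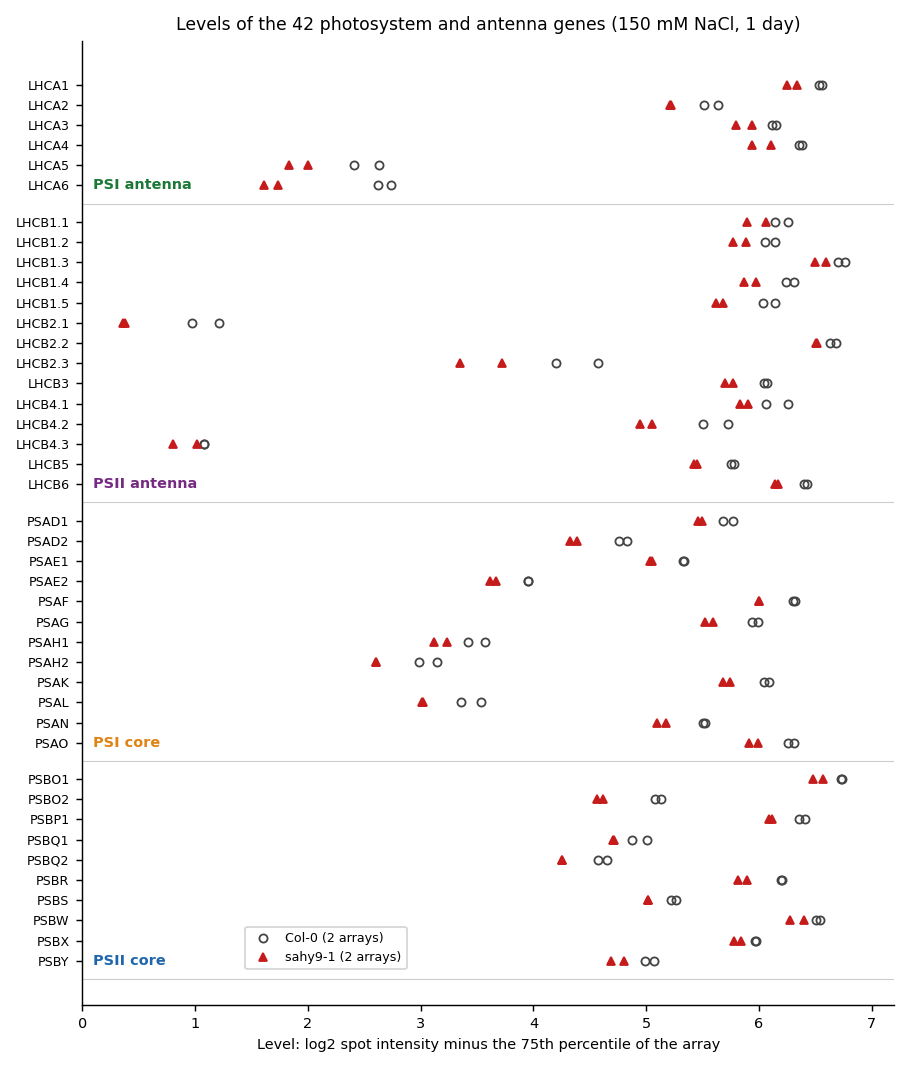
Level of each of the 42 genes on each array (log2 spot intensity minus the 75th percentile of that array), with open circles for the 2 Col-0 arrays and red triangles for the 2 sahy9-1 arrays. The triangles lie to the left of the circles in all 42 rows, also in LHCB4.3, where a sahy9-1 array at 1.02 lies close to the Col-0 arrays at 1.08. Levels of different genes come from different probes and cannot be set against each other.

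The PSI antenna genes were lower without exception, with 6 of 6 fallen and a median log2 fold change of -0.35. LHCA1 to LHCA4 encode the belt of antenna proteins that is bound along one side of the PSI core. LHCA1 (AT3G54890) had levels of 6.56 and 6.54 in Col-0 and 6.24 and 6.34 in sahy9-1. Its log2 fold change of -0.26 ± 0.069 (SE; adjusted P = 0.0364, limma) was the smallest of the PSI antenna. LHCA3 (AT1G61520) had levels of 6.12 and 6.15 in Col-0 and 5.79 and 5.94 in sahy9-1, a log2 fold change of -0.27 ± 0.079 (adjusted P = 0.0467, limma), which was the fall nearest to the threshold. The levels of LHCA2 (AT3G61470) were 5.63 and 5.51 in Col-0 and 5.21 and 5.22 in sahy9-1, a log2 fold change of -0.36 ± 0.074 (adjusted P = 0.0181, limma). LHCA4 was close to LHCA2, with a log2 fold change of -0.34 (adjusted P = 0.0277, limma).

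LHCA5 and LHCA6 are minor members of the family, which in Arabidopsis link PSI to the chloroplast NADH dehydrogenase-like complex of cyclic electron flow. They had larger falls than LHCA1 to LHCA4. LHCA6 (AT1G19150) had levels of 2.74 and 2.62 in Col-0 and 1.74 and 1.62 in sahy9-1. This was the largest difference among the 42 genes, a log2 fold change of -1.004 ± 0.083 (2.01-fold; adjusted P = 0.00307, limma). LHCA5 (AT1G45474) had levels of 2.63 and 2.41 in Col-0 and 2.00 and 1.83 in sahy9-1, a log2 fold change of -0.60 ± 0.11 (1.52-fold; adjusted P = 0.0128, limma). Each of the pair was read by 1 probe.

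In the PSII antenna 9 of 14 genes fell, with a median log2 fold change of -0.31 and fold changes between 1.11 and 1.81. LHCB1, LHCB2 and LHCB3 form the trimers of LHCII, the major antenna of PSII. Of the 5 copies of LHCB1, 3 fell, and the median of the 5 was -0.27. LHCB1.5 had a log2 fold change of -0.44 (adjusted P = 0.0109, limma). Its neighbour LHCB1.4 followed at -0.35 (adjusted P = 0.0190, limma) and LHCB1.2 at -0.27 (adjusted P = 0.0424, limma). LHCB1.1 at -0.22 (adjusted P = 0.105, limma) and LHCB1.3 at -0.19 (adjusted P = 0.0924, limma) did not pass the test. The LHCB1 copies are nearly identical in sequence, so that a probe may read several of them, and differences within the family are uncertain.

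The LHCB2 proteins are phosphorylated when LHCII moves between the photosystems, and 2 of the 3 copies fell. LHCB2.3 (AT3G27690) had levels of 4.57 and 4.204 in Col-0 and 3.72 and 3.35 in sahy9-1, with a log2 fold change of -0.85 ± 0.18 (1.81-fold; adjusted P = 0.0200, limma). LHCB2.1 (AT2G05100) had levels of 1.21 and 0.97 in Col-0 and 0.36 and 0.38 in sahy9-1, with a log2 fold change of -0.72 ± 0.10 (1.65-fold; adjusted P = 0.00680, limma). LHCB2.2 (AT2G05070) had levels of 6.69 and 6.63 in Col-0 and 6.52 and 6.50 in sahy9-1. Its log2 fold change of -0.15 ± 0.064 (adjusted P = 0.115, limma) was the smallest of all 42, and it turned to 0.050 under quantile normalization and 0.026 without scaling. This value came from the brightest of 4 probes. The second brightest gave -0.20, and the dimmer pair gave -0.77 and -0.71. The brighter of the 2 probes of LHCB2.1 gave the -0.72 above, and the dimmer one gave -1.15. LHCB2.1 and LHCB2.2 are near-identical copies, and which transcript each of these probes read was not tested.

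LHCB3 completes the trimers and had a log2 fold change of -0.32 (adjusted P = 0.0174, limma). LHCB4 (CP29), LHCB5 (CP26) and LHCB6 (CP24) are the minor antenna proteins between the trimers and the PSII core. LHCB5 had a log2 fold change of -0.33 (adjusted P = 0.0143, limma) and LHCB6 of -0.26 (adjusted P = 0.0271, limma). LHCB4.2 (AT3G08940) had levels of 5.73 and 5.51 in Col-0 and 4.94 and 5.05 in sahy9-1, with a log2 fold change of -0.62 ± 0.10 (1.54-fold; adjusted P = 0.0101, limma). It was the only one of the 3 LHCB4 copies that fell. LHCB4.1 (AT5G01530), at -0.29 (adjusted P = 0.0537, limma), lay just outside the threshold. Of its 5 probes, 4 gave values between -0.29 and -0.19, and the dimmest, with a mean intensity of 214, gave -1.15. LHCB4.3 (AT2G40100) had levels of 1.08 and 1.08 in Col-0 and 1.02 and 0.80 in sahy9-1, a log2 fold change of -0.17 ± 0.093 (adjusted P = 0.186, limma) that became 0.0036 without scaling.

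**Figure D2:**
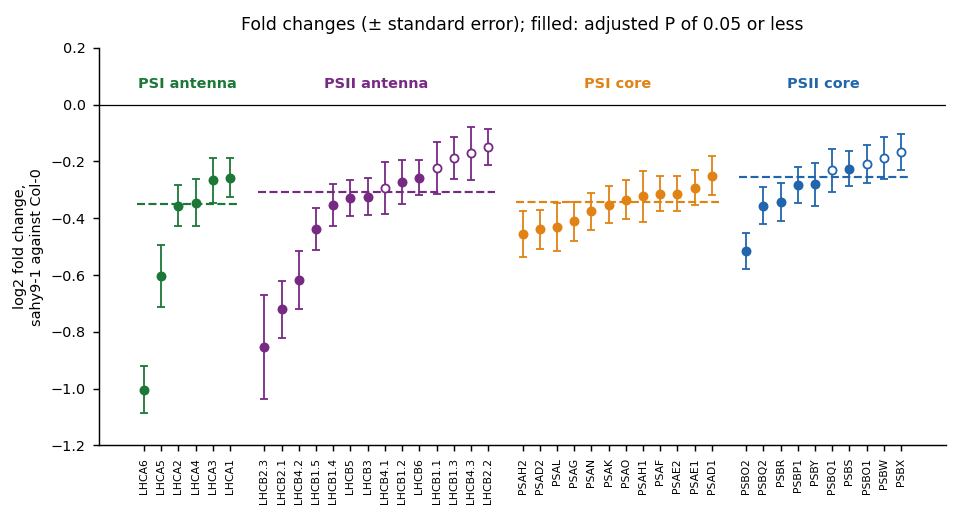
Log2 fold change of each gene, sahy9-1 against Col-0, with error bars of 1 standard error (limma, 2 arrays per genotype), in the 4 sets and ordered by size. Filled points passed an adjusted P of 0.05 (33 of 42) and dashed lines are the medians of the sets (-0.35, -0.31, -0.34 and -0.26 from left to right). LHCA6, LHCB2.3 and LHCB2.1 lie lowest, and the 9 open points are all of PSII. The values shown are scaled to the 75th percentile; 3 points lie above 0 under quantile normalization and 3 without scaling.

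The PSI core genes lay close together. All 12 fell, with a median log2 fold change of -0.34 and fold changes between 1.19 and 1.37. PSAD and PSAE, each encoded by a pair of genes, form the stromal side of PSI where ferredoxin docks. PSAD2 (AT1G03130) had levels of 4.83 and 4.76 in Col-0 and 4.32 and 4.39 in sahy9-1, a log2 fold change of -0.44 ± 0.068 (adjusted P = 0.00862, limma). PSAD1 (AT4G02770) had levels of 5.68 and 5.77 in Col-0 and 5.49 and 5.46 in sahy9-1, and its log2 fold change of -0.25 ± 0.068 (adjusted P = 0.0376, limma) was the smallest of the PSI core. PSAE1 (AT4G28750) had levels of 5.32 and 5.34 in Col-0 and 5.05 and 5.03 in sahy9-1, a log2 fold change of -0.29 ± 0.061 (adjusted P = 0.0187, limma), and PSAE2 was close to it at -0.31 (adjusted P = 0.0170, limma).

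PSAH, PSAL and PSAO lie on the side of PSI where LHCII docks during state transitions. PSAH2 (AT1G52230) had levels of 3.15 and 2.98 in Col-0 and 2.61 and 2.61 in sahy9-1, with a log2 fold change of -0.46 ± 0.081 (1.37-fold; adjusted P = 0.0122, limma), the largest of the PSI core. PSAL (AT4G12800) had levels of 3.53 and 3.36 in Col-0 and 3.01 and 3.02 in sahy9-1, with a log2 fold change of -0.43 ± 0.084 (adjusted P = 0.0151, limma). PSAH1 at -0.32 (adjusted P = 0.0381, limma) and PSAO at -0.33 (adjusted P = 0.0174, limma) were lower by less. PSAF and PSAN, on the lumenal side where plastocyanin delivers electrons, had log2 fold changes of -0.31 (adjusted P = 0.0152, limma) and -0.38 (adjusted P = 0.0119, limma). PSAG and PSAK are small membrane subunits, PSAG next to the antenna belt, and had log2 fold changes of -0.41 (adjusted P = 0.00994, limma) and -0.35 (adjusted P = 0.0138, limma).

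Of the PSII core genes 6 of 10 fell, with a median log2 fold change of -0.26. This median was nearer to 0 than those of the other sets, but under quantile normalization it was -0.16 and that of the PSII antenna -0.14. PSBO, PSBP and PSBQ are the extrinsic proteins that shield the manganese cluster where water is split. PSBO2 (AT3G50820) had levels of 5.13 and 5.08 in Col-0 and 4.61 and 4.56 in sahy9-1, with a log2 fold change of -0.52 ± 0.065 (1.43-fold; adjusted P = 0.00561, limma), the largest of the set. Its copy PSBO1 had a log2 fold change of -0.21 that did not pass (adjusted P = 0.0584, limma). PSBQ2 (AT4G05180) had levels of 4.65 and 4.57 in Col-0 and 4.26 and 4.26 in sahy9-1, with a log2 fold change of -0.36 ± 0.066 (adjusted P = 0.0135, limma). Its copy PSBQ1 had a log2 fold change of -0.23 that did not pass (adjusted P = 0.0625, limma), and PSBP1 one of -0.28 (adjusted P = 0.0226, limma). Whether the copies of a pair differed from each other was not tested.

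PSBR, which stabilises the binding of the extrinsic proteins, had levels of 6.20 and 6.20 in Col-0 and 5.82 and 5.89 in sahy9-1 (AT1G79040; log2 fold change -0.34 ± 0.066, adjusted P = 0.0148, limma). PSBS, the sensor of lumen acidity in the heat dissipation of excess light, had a log2 fold change of -0.23 (adjusted P = 0.0388, limma), and the small subunit PSBY one of -0.28 (adjusted P = 0.0382, limma). The remaining small subunits had the smallest differences of the PSII core. PSBW (AT2G30570) had levels of 6.51 and 6.54 in Col-0 and 6.28 and 6.40 in sahy9-1, a log2 fold change of -0.19 ± 0.074 (adjusted P = 0.0957, limma). PSBX (AT2G06520) had levels of 5.98 and 5.97 in Col-0 and 5.78 and 5.84 in sahy9-1, a log2 fold change of -0.17 ± 0.064 (adjusted P = 0.0921, limma), which became 0.011 under quantile normalization and 0.0097 without scaling.

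Between the photosystems, 18 of 18 PSI genes and 15 of 24 PSII genes fell, with medians of -0.35 and -0.28. Per array and relative to the Col-0 mean, the PSI median was 0.013 and -0.013 in Col-0 and -0.38 and -0.33 in sahy9-1. The PSII median was 0.0029 and -0.0029 in Col-0 and -0.33 and -0.26 in sahy9-1. PSI was thus lower than PSII by 0.047 and 0.068 on the sahy9-1 arrays. On the Col-0 arrays the difference was 0.0098 in either direction. Centring on the mean of the Col-0 arrays makes their values mirror each other, so they are no baseline for the spread. The difference of the medians was -0.067. It kept its sign under every alternative run, from -0.12 without Col-0 replicate 2 to -0.029 without Col-0 replicate 1. It is given as a description, with no test. The PSII genes were read on brighter spots (median Col-0 level 6.07) than the PSI genes (5.54), and with the dimmest probe of each gene the difference was -0.043. The part of spot brightness in the difference was not tested.

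Antenna and core genes had nearly the same medians. Of the antenna genes 15 of 20 fell, with a median of -0.33, and of the core genes 18 of 22, with a median of -0.32. The antenna minus core difference was -0.012 and 0.020 on the sahy9-1 arrays and 0.023 and -0.023 on the Col-0 arrays. Its sign changed with the processing, from -0.14 with the dimmest probe of each gene to 0.053 under quantile normalization.

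The brightness of the spots bears on these values. Background-subtracted intensities of the 42 genes ran from 3839 to 304986, with a median of 151008, and 28 of the 42 were among the brightest 1% of genes tested. The highest raw signal of any of them was 33.2 to 36.8% of the saturation value on the 4 arrays, and all probes of the 42 genes were well above background. Other bright genes also read somewhat lower in sahy9-1. In the brightest 1%, the median log2 value was -0.29 for the 28 photosystem genes and -0.11 for the other 189 genes, of which 31.2% fell. Of the latter, the 175 outside all photosynthesis lists had a median of -0.084, and 29.7% of them fell. In the next band, from 1 to 5%, the 9 photosystem genes had a median of -0.36, whereas the other 860 genes had a median of 0.0039 and 26.7% fell. The 5 dimmer photosystem genes included LHCA5, LHCA6 and LHCB2.1, among the larger falls, and LHCB4.3, among the smallest.

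**Figure D3:**
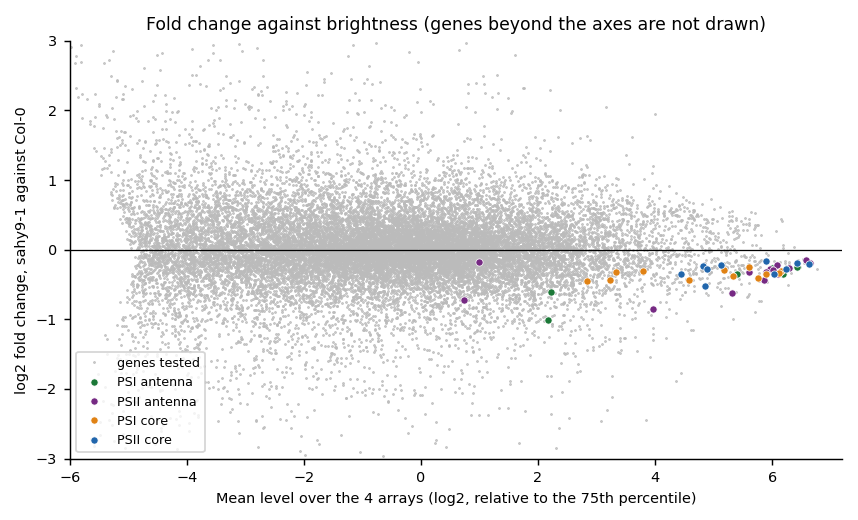
Log2 fold change, sahy9-1 against Col-0, against the mean level over the 4 arrays (log2, relative to the 75th percentile), with grey points for genes tested and coloured points for the 42 genes in their 4 sets. The grey points, which include the 42 genes, centre on about 0 (median -0.0041). They bend downward at the right end, where 28 of the 42 lie in the brightest 1%. All coloured points lie below 0 in this scaling; 39 of 42 do under quantile normalization and without scaling.

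Scalings that treat bright spots differently changed the size of the falls. Cyclic loess between arrays, which fits a smooth curve over brightness, left 31 genes fallen (5307 of all genes) and a median of -0.30. Whether that curve followed the bend among the brightest genes was not tested. Quantile normalization, which gives every array the same distribution, left 19 genes fallen (5149 of all genes) and a median of -0.17. LHCB1.3, LHCB2.2 and PSBX were then at or above 0. Without scaling, 5 of the 42 genes fell, against 2234 of all 21729 genes tested, which is about the same share. The median was -0.15, but there the median of all genes moved to 0.17, and relative to it the 42 genes were at -0.32. With a normexp background correction 1 of the 42 fell, a smaller share than the 1431 of all 21729 genes. The median of the 42 there was -0.23, or -0.13 relative to a median of -0.10 for all genes. In the main setting 33 of the 42 and 5220 of all genes fell.

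The array holds several probes for most of these genes, which gave a further view of the bright spots. All 126 probes of the 42 genes read lower in sahy9-1, with a median of -0.36. In 28 of the 34 genes with several probes, the dimmest probe gave a larger fall than the brightest, with medians of -0.49 and -0.32 over the 34. PSBW shows the pattern, with -0.19, -0.38, -0.45 and -0.64 from its brightest to its dimmest probe. With the dimmest probe in place of the brightest for every gene, again 33 of the 42 fell, as did 4608 of all genes. The median of the 42 was -0.45 against 0.0038 for all genes, and LHCB2.2 was at -0.71 (adjusted P = 0.0105, limma).

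**Figure D4:**
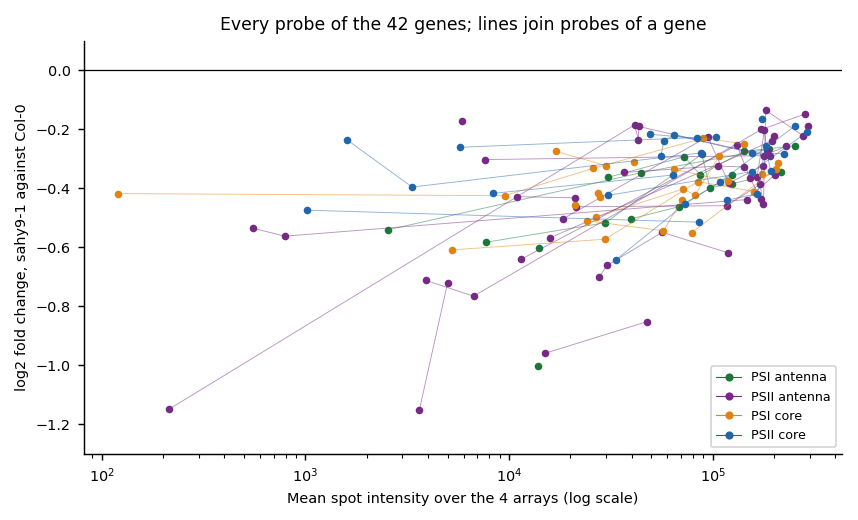
Log2 fold change of each of the 126 probes of the 42 genes, sahy9-1 against Col-0, against the mean spot intensity over the 4 arrays (log scale), coloured by set, with lines that join the probes of a gene. Every probe lies below 0, and in 28 of 34 genes with several probes the dimmest lies lower than the brightest. LHCB4.1 has the longest line, from -0.19 to -1.15.

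Other genes of photosynthesis moved mostly the same way. Of 14 nuclear genes of electron transport and ATP synthase, 11 fell and 0 rose (median -0.29). PGRL1A, a protein of cyclic electron flow around PSI, had levels of 3.94 and 3.86 in Col-0 and 3.17 and 3.11 in sahy9-1 (log2 fold change -0.76, adjusted P = 0.00349, limma). PETE1, a plastocyanin, had levels of 4.23 and 4.13 in Col-0 and 3.41 and 3.48 in sahy9-1 (log2 fold change -0.74, adjusted P = 0.00381, limma). Of 14 genes of photosystem assembly and antenna targeting, 8 fell and 1 rose (median -0.26). PSB27, placed in this list, was at -0.43 (adjusted P = 0.00980, limma). PSB28, also placed here, was at -0.022 and did not pass (adjusted P = 0.874, limma). The largest differences were those of TAP38, the phosphatase that dephosphorylates LHCII, at -0.64 (adjusted P = 0.00680, limma) and of HCF136, a PSII assembly factor, at -0.63 (adjusted P = 0.00493, limma). The gene that rose was STN8, the kinase of PSII core proteins, at 0.44 (adjusted P = 0.00856, limma), and it is named because it went against the others.

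The LHC-like proteins, relatives of the antenna proteins with roles in stress and pigment binding, fell in 9 of 9 cases, with a median of -0.47. LHCB7, placed in this list, was at -0.82 (adjusted P = 0.00407, limma). The early light-induced protein gene ELIP1 had levels of 5.24 and 4.88 in Col-0 and 3.06 and 2.17 in sahy9-1 (log2 fold change -2.44 ± 0.32, 5.44-fold; adjusted P = 0.00624, limma). ELIP2 had levels of 2.62 and 2.37 in Col-0 and 1.096 and 0.026 in sahy9-1 (log2 fold change -1.94 ± 0.37, 3.83-fold; adjusted P = 0.0145, limma). Both genes lay outside the range of the 42, and their sahy9-1 arrays differed from each other by more than those of any of the 42.

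Of 26 genes of chlorophyll synthesis, 14 fell and 1 rose (median -0.22). PORA, a protochlorophyllide oxidoreductase of etiolated seedlings, was at -1.45 (adjusted P = 0.00806, limma), and GUN4, which activates magnesium chelatase, at -0.64 (adjusted P = 0.00525, limma). Of 10 genes of chlorophyll breakdown, 6 fell and 0 rose (median -0.37). They included NYE2, a chlorophyll-degrading Mg-dechelatase, at -2.13 (adjusted P = 0.0107, limma), and PAO, the pheophorbide a oxygenase, at -1.33 (adjusted P = 0.00840, limma), so that genes of both directions of pigment turnover were lower. Of 22 genes of the Calvin cycle, 10 fell and 0 rose (median -0.20). The regulator CP12-2 was at -0.98 (adjusted P = 0.00746, limma) and GAPA2, a glyceraldehyde-3-phosphate dehydrogenase, at -0.44 (adjusted P = 0.00671, limma).

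Of 21 regulators of nuclear or chloroplast-encoded photosynthesis genes tested, 12 fell and 0 rose (median -0.38). The plastid sigma factor SIG5 had levels of -0.12 and -0.41 in Col-0 and -1.26 and -1.70 in sahy9-1 (log2 fold change -1.22, adjusted P = 0.00822, limma). CCA1, a clock factor that binds an LHCB1 promoter, had levels of 0.95 and 1.09 in Col-0 and -0.21 and -0.14 in sahy9-1 (log2 fold change -1.196, adjusted P = 0.00210, limma). LHY, another clock factor of the list, was at -0.25 and did not pass (adjusted P = 0.341, limma). The factors GLK1 and GLK2, which activate antenna and chlorophyll synthesis genes, were at -0.44 (adjusted P = 0.00815, limma) and -0.60 (adjusted P = 0.00431, limma). This pair was named outside the rule by size. Of the 21 tested, 18 read lower, while HYH, GNL and GNC read higher without passing the test. HYH was at 0.60 (adjusted P = 0.0594, limma). The part of these regulators in the falls was not tested.

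**Figure D5:**
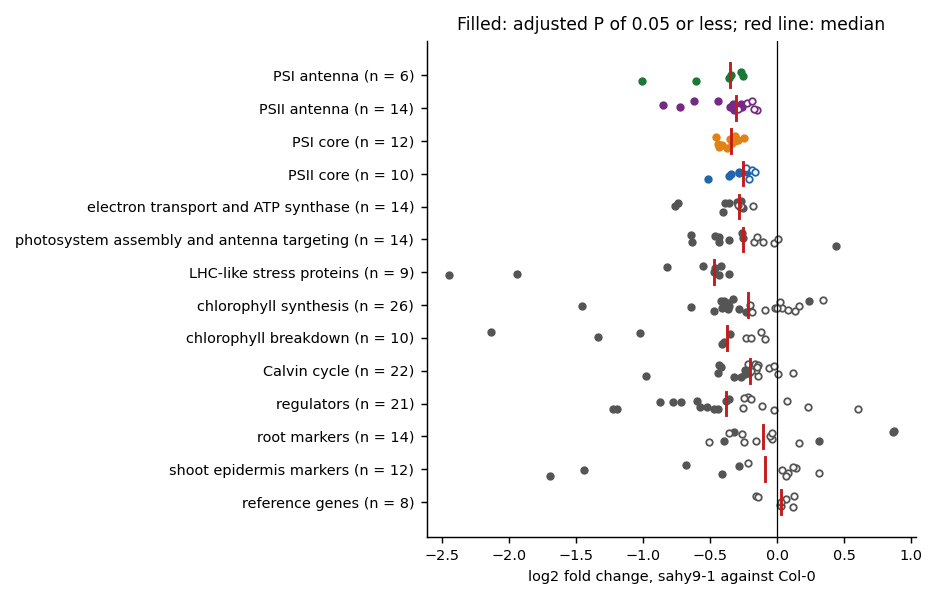
Log2 fold changes, sahy9-1 against Col-0, of the 4 sets of photosystem genes (coloured) and of 10 other gene lists (grey), with the number tested in parentheses. Filled points passed an adjusted P of 0.05, and red lines are medians. The medians of the photosynthesis lists lie between -0.47 and -0.20, and that of the reference genes at 0.027. The values shown are scaled to the 75th percentile; the reference gene UBQ10, at -0.16, lies above 0 under quantile normalization, without scaling and with other probes.

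Markers of organs and of tissues that hold few chloroplasts were read beside these genes, as the mutant seedlings differ in build. Of 14 root markers tested, 10 read lower and 4 higher (median -0.10), and 2 fell and 3 rose. These were 14.3 and 21.4% of the markers, against 24.0 and 25.4% of all genes. Their summed level was 5.92 and 5.95 in Col-0 and 5.86 and 5.81 in sahy9-1, of which PYK10 made up 68.6 to 82.4%. Without PYK10 the sum was 3.59 and 3.45 in Col-0 and 4.19 and 3.99 in sahy9-1. Without both PYK10 and PHT1;1 it was 2.51 and 2.33 in Col-0 and 2.61 and 2.49 in sahy9-1. The nitrate transporter gene NRT2.1 was at 0.87 (adjusted P = 0.0124, limma) and the phosphate transporter gene PHT1;1 at 0.87 (adjusted P = 0.00540, limma). MYB36, the other root marker that rose, was at 0.31 (adjusted P = 0.0174, limma). Those that fell were PYK10, a beta-glucosidase gene, at -0.32 (adjusted P = 0.0175, limma) and RHD6, a root hair factor gene, at -0.40 (adjusted P = 0.0391, limma). Of 12 shoot epidermis markers, 6 read lower and 6 higher (median -0.091), and 5 (41.7%) fell and 0 rose. Their summed level was 5.87 and 5.75 in Col-0 and 5.26 and 5.27 in sahy9-1, of which CER6 and CER1 made up 55.3 to 68.4%. Without this pair the sum was 4.21 and 4.19 in Col-0 and 4.05 and 4.11 in sahy9-1. GL1, needed for trichomes, was at -1.69 (adjusted P = 0.00168, limma) and CER1, of leaf wax synthesis, at -1.44 (adjusted P = 0.00391, limma). The part of organ proportions in the falls of the photosystem genes was not tested. None of 8 reference genes changed by limma, and they had a median of 0.027. The farthest from 0 were UBQ10 at -0.16 (adjusted P = 0.0971, limma), whose spot is also bright and which turned to 0.023 under quantile normalization, 0.018 without scaling and 0.25 with its dimmest probe, and SAND at -0.14 (adjusted P = 0.130, limma), which turned to 0.033 without scaling.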

How the data were processed

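The deposited scanner files gave spot intensities, which the authors had extracted and background-subtracted with Agilent Feature Extraction 10.7.1.1, and flags for outlier, saturated and well-above-background spots. The deposited table holds log2 values, for which the authors scaled arrays to the 75th percentile and centred each probe on the Col-0 mean, as a comparison with the intensities showed (largest difference 0.00045 over 43553 probes). Column medians were 0.018 and -0.018 (Col-0) and -0.10 and -0.084 (sahy9-1).

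Here log2 intensity minus the 75th percentile of each array was used. Control spots and outlier spots (10 to 13 per array) were left out, spots of a probe were averaged, and the probe of highest mean signal stood for a gene. Of 35137 transcripts 26309 were matched to a locus in the RefSeq names, and other names were kept. Genes were tested if both arrays of a genotype reached an intensity of 100, using limma 3.58.1 in R 4.3.3 (also data.table, version 1.17.8, jsonlite 2.0.0, Python 3.11.15 and matplotlib 3.10.9), with Benjamini-Hochberg adjustment. The code was tested on simulated data. The number of arrays limits the precision.

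The genes, lists and tests were chosen with earlier results of these data known. Members named in full were the 3 largest and 2 smallest fold changes of each set and those whose probes differed by over 1.5-fold. Of each other list the 2 largest were named, with some further genes outside this rule. All other members were given briefly. Alternatives were other scalings, background, filters, probes, variance models, the methods' t-test, the replicate block, the deposited table, a 3-fold threshold and leaving out each array. The dimmest probe was added after seeing the data. The 10 chloroplast-encoded genes listed matched no probe by locus and were not analysed here, and neither ABI4, IRT1 nor ACT2 was tested. Promoter sequences were not used here.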

Additional observations from a re-analysis of the deposited data

How the results depend on the processing

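The 42 genes read lower in 42 of 42 cases under every setting except quantile normalization and no scaling (39 each), and 0 were called higher under any. Genes fallen, of the 42 and of all 21729 tested, numbered 33 and 5220 (main), 19 and 5149 (quantile), 5 and 2234 (no scaling), and 1 and 1431 (normexp). Without the signal filter 6 of the 42 fell, against 3053 of all 34252 genes tested. Genes fallen of the 42 numbered 0 with 3-fold required, in limma, and 0 under the methods' t-test after adjustment (30 unadjusted, 36 of all genes lower). They ranged from 4 to 25 when an array was left out, with 22 without Col-0 replicate 1, 25 without Col-0 replicate 2, 5 without sahy9-1 replicate 1 and 4 without sahy9-1 replicate 2, the lone array being assumed to vary like the other genotype. Median scaling, cyclic loess, the raw filter, outliers kept, the mean over probes, an intensity trend and the deposited table gave 31 to 39.

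Medians over all, PSI antenna, PSII antenna, PSI core and PSII core were -0.32, -0.35, -0.31, -0.34 and -0.26. They were -0.17, -0.22, -0.14, -0.29 and -0.16 under quantile normalization, and -0.15, -0.17, -0.13, -0.17 and -0.081 without scaling. With normexp they were -0.23 over all, -0.20 for the PSII antenna, -0.29 for the PSI core and -0.17 for the PSII core. They were -0.37, -0.43, -0.38, -0.38 and -0.32 with the mean over probes, and -0.45, -0.56, -0.55, -0.42 and -0.36 with the dimmest probe. Leaving out an array gave -0.34 to -0.30, -0.40 to -0.30, -0.34 to -0.28, -0.38 to -0.33 and -0.31 to -0.22.

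The other lists held 82 called genes (77 lower), and 28 without scaling, 14 with normexp, 37 without the signal filter, 1 under the adjusted t-test and 25 to 71 with an array left out. APUM23 stayed at -2.95 with an adjusted P of 0.0587 in the methods' t-test. Reversed values were those of LHCB2.2 (0.050 quantile, 0.026 no scaling), LHCB4.3 (0.0036 no scaling), PSBX (0.011 quantile, 0.0097 no scaling), UBQ10 (0.023 quantile, 0.018 no scaling, 0.053 mean over probes, 0.25 dimmest probe) and SAND (0.033 no scaling); LHCB1.3 was at 2.4e-06 under quantile normalization. Over the 41 genes named by rule and 19 settings, 769 of 779 values kept their direction, 133 lost and 12 gained a call. The causes were not tested.

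The replicate number was shared between genotypes. With it as a replicate block 34 of the 42 genes fell; deviations of same-numbered arrays correlated at 0.44 over 2 pairs, too few to take the numbers as pairs.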
